A study of Homo sapiens with 16 samples.

Results

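The effect of a guide RNA against YES1 was measured in MDA-MB-231, an established human line of triple-negative breast cancer. The comparison takes up 8 of the 16 samples of the series, 4 with the YES1 guide (sgYES1) and 4 with a non-targeting guide (sgNTS), and covers every gene counted in them. Cells labelled as wild type were transfected by lipofection with either guide and collected 48 h later, so that both groups share the transfection and differ by label in the guide alone. The labels name no selection or cloning of edited cells, and no source used here gives the nuclease that acts with the guides. The other 8 samples hold the same pair of guides in SUM159PT, a second triple-negative line, and enter only where the effect of the guide was compared between lines. The series is titled as a study of YES1, mitotic fidelity and the response to taxanes, but no taxane is named for these samples.

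YES1 is a tyrosine kinase of the Src family. These kinases sit on the inner face of the plasma membrane, are switched on by integrins and growth factor receptors, and phosphorylate adhesion scaffolds, caveolin and signaling adaptors. Breast cancer cells of the mesenchymal-like kind also use several stress and inflammatory circuits that recur below. NF-kB factors are held in the cytoplasm by inhibitor proteins until a stimulus destroys the inhibitors, and they then switch on cytokine and chemokine genes together with the genes of their own inhibitors. Genes of mitosis are switched on late in the cell cycle through the DREAM and MuvB complexes, which bind promoter elements known as CHR and CCAAT boxes.

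Counts per library summed to between 17156454 and 25124164 over genes. The counts were scaled by the TMM method to CPM (counts per 1000000 counts of the scaled library), and a gene was called when its adjusted p fell under 0.05 in the quasi-likelihood test of edgeR, Benjamini-Hochberg adjusted over 15427 tested genes. Replicates are called technical by the submitters, and separate cultures are named in no label, so that a p-value here reflects sample-to-sample spread and nothing beyond it. The line expressed the markers of a mesenchymal-like triple-negative line, with VIM, CD44 and AXL over 1000 CPM in the mean of the sgNTS libraries. Among 15 markers of luminal and epithelial breast cells, 7 had a mean under 1 CPM, and PGR was at 0 in all 8 libraries. Others of that list were expressed, with KRT8, KRT19 and ERBB2 at 746, 289 and 109 CPM in the mean of the sgNTS libraries. The library sgNTS replicate 4 stood apart from its group. Its chi-square per degree of freedom was 29.1, 19.6 and 9.38 against replicates 1, 2 and 3, where the lowest value of any pair was 2.34, and mitochondrial transcripts took 2.34% of its counts against 3.81% to 5.15% in the other sgNTS libraries and 3.78% to 5.08% in the sgYES1 libraries. The sgYES1 libraries also had more genes with at least 1 count (23909 to 25368 against 22401 to 23682) and a larger share of counts in long intergenic and antisense genes (0.665% to 0.690% against 0.529% to 0.572%). The part of these library differences in the results below was not tested, and the counts over gene lists were recomputed without each library. Values in parentheses without a unit are log2 fold changes of sgYES1 over sgNTS, and ± is the SD of 4 libraries.

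YES1 itself was lower in every library that received its guide. Its level was 107, 109.6, 107 and 113 CPM in sgNTS replicates 1 to 4 and 41.6, 42.9, 44.3 and 43.7 CPM in sgYES1 replicates 1 to 4. The groups were far apart, each within a narrow range, and the sgYES1 libraries held 39.6% of the sgNTS level. The log2 fold change was -1.34 (SE 0.04, adjusted p = 2.76e-11). An exact permutation test of the log2 CPM values (two-sided) gave p = 0.0286, which is the lowest value open to 4 against 4 libraries. Counts of RNA do not show how many cells lost the gene's product, since in a bulk sample fewer cells with a transcript and less transcript per cell cannot be told apart. Among the related kinases, SRC (log2 fold change 0.03) and FYN (0.02) were not called. LYN had -0.14, and its call was lost without any 1 of sgNTS replicates 2, 3 or 4 or sgYES1 replicates 1, 3 or 4. Among 8 tested regulators of the family, phosphatases and ubiquitin ligases included, 5 fell and 1 rose, each by less than 1.5-fold (the number that fell was 3 without sgNTS replicate 4 or sgYES1 replicates 2 or 3). PTPRA, a phosphatase that activates Src kinases, fell from 98.2 to 80.5 CPM (-0.28), and CBLB, a ubiquitin ligase, rose from 14.3 to 18.5 CPM (0.36).

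Genes next to YES1 on its telomeric side were lower as well. The gene, ENSG00000176105, spans 721588 to 812546 of chromosome 18 (hg38, minus strand), near the end of the short arm, and all 4 tested protein-coding genes between it and the telomere fell. TYMS, thymidylate synthase, lies 48.0 kb from YES1 and had 107, 104, 109 and 112 CPM in sgNTS replicates 1 to 4 and 54.9, 61.1, 52.9 and 59.6 CPM in sgYES1 replicates 1 to 4. Its groups did not overlap, and its log2 fold change of -0.92 (SE 0.05, adjusted p = 5.86e-09) was the largest fall of the 4. TYMS also belongs to the nucleotide supply genes described below, of which 12 of 13 tested fell. Position and gene group therefore cannot be told apart for its fall. ENOSF1, which overlaps TYMS on the opposite strand, fell from 28.9 ± 3.87 to 18.9 ± 0.877 CPM (-0.61), THOC1, of the THO complex of mRNA export, from 41.5 ± 1.90 to 32.0 ± 2.12 CPM (-0.37), and USP14, a proteasome-bound deubiquitinase, from 169 ± 6.10 to 144 ± 2.45 CPM (-0.23). Exons of ENOSF1 cover 39.1% of the exon bases of TYMS, so reads of this pair cannot be told apart if strand was not used in counting. In SUM159PT the same guide gave -0.21 for TYMS, -0.57 for ENOSF1, -0.03 for THOC1 and 0.01 for USP14. The effects differed between lines for TYMS, THOC1 and USP14 (interaction of line and guide, adjusted p = 5.74e-07, 0.00444 and 0.014) and were not shown to differ for ENOSF1 (adjusted p = 0.9).

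Genes on the other side of YES1 were counted by distance, and of all tested protein-coding genes 20.4% rose and 25.6% fell. Of 9 tested protein-coding genes at 1 to 5 Mb from the gene, 6 fell and 2 rose, with a median log2 fold change of -0.27. Of 30 at 5 to 14 Mb, 7 fell and 4 rose, near those shares, with a median of 0.00, and over the rest of the chromosome 42 of 134 fell and 12 rose, with a median of -0.09. For all tested protein-coding genes the median was -0.01. The nearer set holds NDC80, an outer kinetochore protein (-0.49), MYL12A and MYL12B, the regulatory light chains of nonmuscle myosin (-0.49 and -0.44), and LPIN2, a phosphatidate phosphatase (-0.29), while TGIF1, a repressor of TGF-beta signaling, rose from 51.0 to 73.4 CPM (0.52). NDC80 belongs to the mitotic list and the myosin light chains to the actin list described below, so position and gene group cannot be told apart for these falls.

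**Figure D1:**
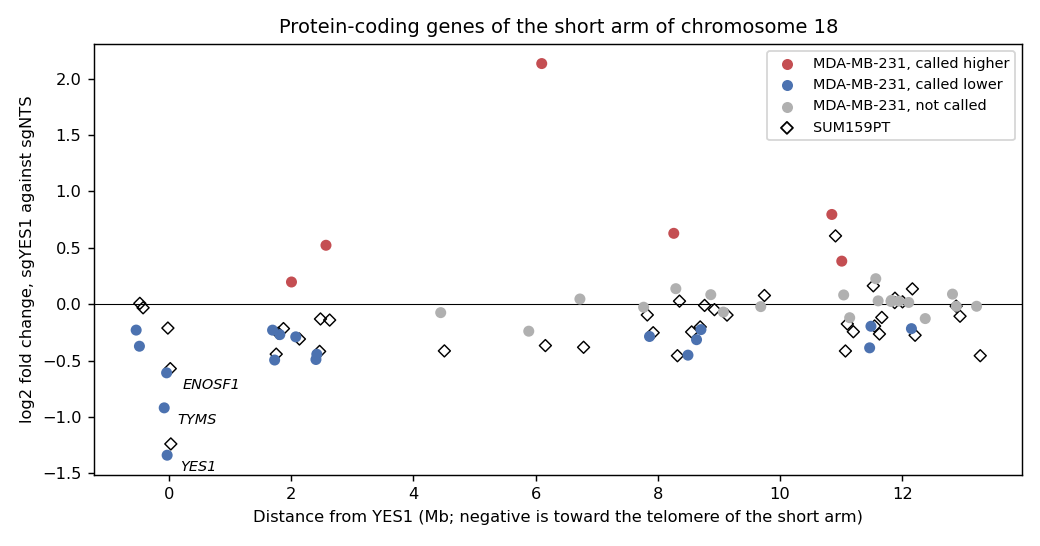
Log2 fold change of tested protein-coding genes of the short arm of chromosome 18 against distance from YES1 in Mb, for MDA-MB-231 (filled circles, coloured by call) and SUM159PT (open diamonds). The 4 genes on the telomeric side of YES1 are all called lower in MDA-MB-231, and the points scatter around 0 beyond 5 Mb.

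Over the whole transcriptome the response was broad and mostly shallow. Of 15427 tested genes, 42.8% were called, 20.8% higher and 22.1% lower in sgYES1, and for 39.2% of genes the ranges of the groups were separate. Every count over a gene list below is to be read beside these shares. With library totals as the only scaling the share of calls that were higher moved from 48.5% to 59.8%. Rises of at least 1.5-fold were called for 7.2% of genes and falls of that size for 1.81%. The direction of the calls changed with level. Over 100 CPM, 344 of 2414 genes rose and 1033 fell, whereas at 1 to 10 CPM 985 of 4112 rose and 378 fell, and under 1 CPM 304 of 1569 rose and 36 fell. Protein-coding genes were split between 2617 rises and 3291 falls among 12835 tested. Antisense genes rose more often than they fell (192 rose and 22 fell of 741, median 0.26), as were long intergenic noncoding genes (154 rose and 24 fell of 577, median 0.25), and both classes move with the larger noncoding share of the sgYES1 libraries. Among chromosomes, chromosome 19 had the highest share of rises, with 340 of 1116 genes higher and 142 lower (median 0.11).

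**Figure D2:**
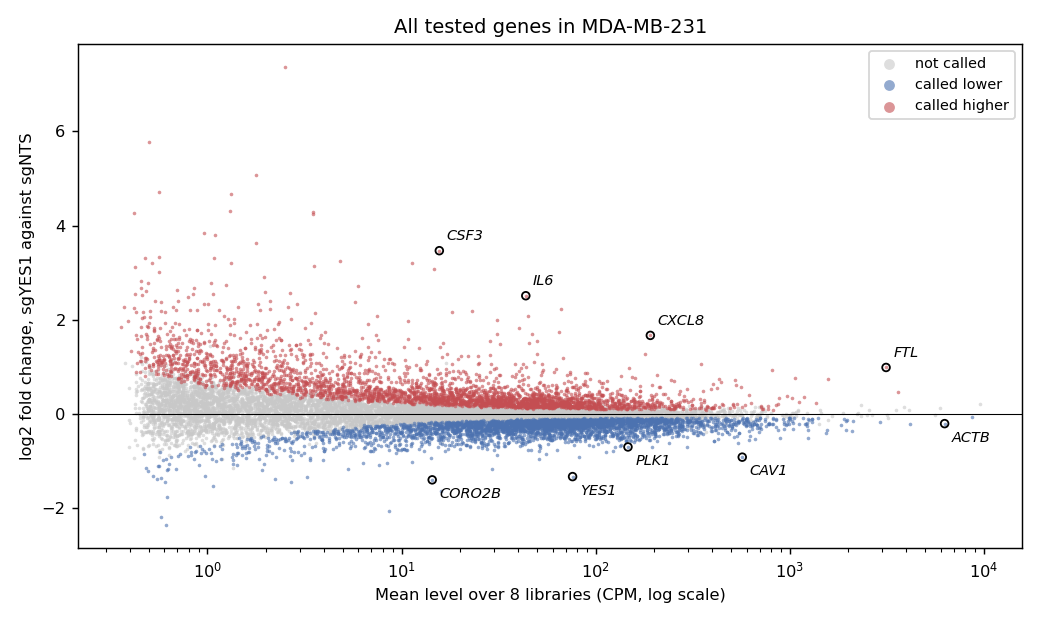
Log2 fold change of each tested gene in MDA-MB-231 against its mean CPM over the 8 libraries (log axis), coloured by call, with 9 genes named. Large rises lie at low and middle levels, and over 100 CPM falls outnumber rises.

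Many genes for secreted cytokines rose, several of them by more than 2-fold. Of 16 tested interleukin and colony-stimulating factor ligands, 11 rose and 2 fell, with a median log2 fold change of 0.42 against 0.01 over all tested genes, where 20.8% rose. IL6, the ligand of the gp130 receptor that drives STAT3 signaling, had 12.9, 13.2, 13.3 and 12.8 CPM in sgNTS replicates 1 to 4 and 82.0, 76.9, 71.9 and 66.5 CPM in sgYES1 replicates 1 to 4. IL1A, the membrane-bound form of interleukin-1, had 3.45, 2.92, 2.81 and 3.21 CPM in the sgNTS libraries and 28.4, 29.1, 26.6 and 21.8 CPM in the sgYES1 libraries. CSF3, which drives the making of neutrophils, had 2.66, 2.39, 3.33 and 2.10 CPM in the sgNTS libraries and 30.6, 29.3, 27.6 and 27.4 CPM in the sgYES1 libraries. Each of these 3 genes was separated by more than the whole range of either group, with log2 fold changes of 2.51 (SE 0.07, adjusted p = 1.18e-11), 3.07 (SE 0.11, adjusted p = 1.35e-10) and 3.47 (SE 0.10, adjusted p = 2.76e-11). IL24 rose from 17.0 ± 2.11 to 72.1 ± 8.62 CPM (2.08), IL1B from 1.59 ± 0.368 to 10.3 ± 1.30 CPM (2.71) and CSF2, the granulocyte-macrophage factor, from 17.0 ± 0.583 to 47.3 ± 1.94 CPM (1.48). LIF, a gp130 ligand, and CSF1, the macrophage growth factor, rose by less (0.43 and 0.41), although CSF1 had a mean of 529.7 CPM in sgNTS. Some ligands went the other way.

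IL11, another gp130 ligand, had 67.6, 64.8, 64.3 and 75.0 CPM in sgNTS replicates 1 to 4 and 32.2, 36.4, 36.2 and 34.3 CPM in sgYES1 replicates 1 to 4. It was lower in all 4 sgYES1 libraries (log2 fold change -0.97, SE 0.06, adjusted p = 2.09e-08), and IL18 fell as well, from 9.86 ± 0.822 to 6.75 ± 0.249 CPM (-0.54). The counts of the 21 listed ligands summed to a mean of 859.6 ± 16.4 CPM over the sgNTS libraries and 1248 ± 29.6 CPM over the sgYES1 libraries (SD, n = 4), and the libraries of the groups did not overlap. Of 13 tested receptors 7 rose and 2 fell. IL1R1 and IL1RAP, which together form the interleukin-1 receptor, rose by 0.35 and 0.36, and IL6ST, which encodes gp130, rose from 326 ± 25.3 to 400.1 ± 31.0 CPM (0.29). SOCS3 and SOCS2, inhibitors of cytokine receptor signaling, fell by 0.33 and 0.43 on the log2 scale. STAT3 itself had a log2 fold change of -0.02 and was not called.

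Chemokine ligands showed the same direction. Of 12 tested, 7 rose and 0 fell, and the median was 0.84 (the number that fell was 1 without sgNTS replicate 2 or sgYES1 replicate 3). CXCL8, which attracts neutrophils, had 94.7, 91.0, 93.8 and 87.8 CPM in sgNTS replicates 1 to 4 and 295, 323, 273 and 273 CPM in sgYES1 replicates 1 to 4. CXCL1, a second neutrophil attractant, had 24.1, 23.5, 24.2 and 21.1 CPM in the sgNTS libraries and 112, 124, 96.1 and 104 CPM in the sgYES1 libraries. Both genes were higher in all 4 sgYES1 libraries than in any sgNTS library (log2 fold changes 1.66 and 2.23, SE 0.05 and 0.07, adjusted p = 4.08e-11 and 6.11e-11). The close paralogs CXCL2 and CXCL3 rose from 17.9 ± 1.90 to 62.9 ± 2.83 CPM and from 6.58 ± 0.620 to 29.7 ± 2.58 CPM; these 3 CXCL genes are similar in sequence, so their separate levels are uncertain. CCL20, a ligand that attracts dendritic and T cells, rose from 0.312 to 1.83 CPM (2.55), and CCL5 from 1.71 to 3.17 CPM (0.90), both at a low level. CXCL10, a target of interferon, was not called (1.02 to 1.21 CPM). CXCR4, the receptor of CXCL12, fell.

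CXCR4 had 9.57, 8.96, 8.95 and 9.08 CPM in the sgNTS libraries and 5.94, 4.79, 5.59 and 5.47 CPM in the sgYES1 libraries, with no overlap and a log2 fold change of -0.75 (SE 0.09, adjusted p = 1.66e-05). ACKR3, the other receptor of CXCL12, rose from 1.38 to 2.25 CPM (0.71). The listed chemokine ligands together took 181 ± 7.01 CPM in sgNTS and 536 ± 38.6 CPM in sgYES1 (SD, n = 4). Markers of leukocytes, which make many of these factors, were checked beside this rise. Of 17 such markers, 15 had a mean under 1 CPM and 4 were at 0 in all 8 libraries, among them the T cell genes CD3E and CD2. The 4 that could be tested all passed the test upward, CSF1R from 7.73 to 9.19 CPM, CD14 from 0.853 to 1.96 CPM, ITGAM from 0.294 to 1.14 CPM and LST1 from 0.243 to 1.43 CPM, and the call of CSF1R was lost without any 1 of sgNTS replicates 1, 2 or 3 or sgYES1 replicates 2, 3 or 4. The list ranged in sum from 9.48 to 10.4 CPM among sgNTS libraries and from 13.8 to 15.3 CPM among sgYES1 libraries, and its part in the cytokine rise was not tested.

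The NF-kB pathway was examined by role, and the promoters of 7 of its targets are shown because their windows hold a kB match. Of 10 tested inhibitors of the pathway 8 rose and 0 fell (median 0.43), and of 14 other targets 10 rose and 1 fell (median 0.67). The stretches below come from the RefSeq promoter table of build GRCh38.p14, which gives 250 bases before and 50 after the start of each gene. Each is printed 5′ to 3′ on the strand of its gene and ends before the start, with the kB letters in capitals (GGGA and TTCC with any 2 bases between them, or the reverse complement, GGAA and TCCC with any 2 bases between). The regions are chr7:22727097-22727166 (plus strand) for IL6, chr4:73869284-73869353 (plus strand) for CXCL1, chr4:74099234-74099303 (minus strand) for CXCL2, chr4:74038729-74038798 (minus strand) for CXCL3, chr14:35404791-35404860 (minus strand) for NFKBIA, chr6:137867162-137867231 (plus strand) for TNFAIP3 and chr9:128149248-128149317 (plus strand) for LCN2.
IL6: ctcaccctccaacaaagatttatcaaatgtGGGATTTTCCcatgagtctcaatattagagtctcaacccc
CXCL1: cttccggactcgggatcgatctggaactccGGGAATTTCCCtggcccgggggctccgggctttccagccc
CXCL2: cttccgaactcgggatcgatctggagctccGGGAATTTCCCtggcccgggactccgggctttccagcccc
CXCL3: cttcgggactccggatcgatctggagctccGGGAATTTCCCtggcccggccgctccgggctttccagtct
NFKBIA: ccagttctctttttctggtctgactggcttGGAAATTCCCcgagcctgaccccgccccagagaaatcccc
TNFAIP3: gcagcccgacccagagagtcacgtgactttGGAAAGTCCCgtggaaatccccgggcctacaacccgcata
LCN2: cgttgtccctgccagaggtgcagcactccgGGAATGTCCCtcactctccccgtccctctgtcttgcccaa
The 3 CXCL stretches carry the same 11-base block, in which both orientations of the motif overlap, and it starts at -79 or -78 from the gene start. The first match starts at -73 in IL6, -81 in NFKBIA, -67 in TNFAIP3 and -175 in LCN2. On either strand the motif was found in 1.61% of 35116 promoter windows, in 5 of 9 windows of chemokine ligands, in 2 of 10 of interleukin ligands and in 8 of 42 of the NF-kB list. Over all tested protein-coding genes with a window, however, 38 of the 165 with the motif rose (23.03%), against 20.04% of the 10176 in all. A match of letters is a description and shows no binding.

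Among the inhibitors, NFKBIA, which encodes IkB-alpha, had 111, 109, 115 and 106 CPM in the sgNTS libraries and 156, 162, 158 and 156 CPM in the sgYES1 libraries. TNFAIP3, the ubiquitin-editing enzyme A20, had 32.8, 34.7, 34.1 and 35.1 CPM in the sgNTS libraries and 70.5, 72.9, 74.7 and 66.7 CPM in the sgYES1 libraries. Both were higher in all 4 sgYES1 libraries, with log2 fold changes of 0.52 (SE 0.04, adjusted p = 9.23e-08) and 1.06 (SE 0.05, adjusted p = 1.23e-09). TNIP1, a partner of A20, rose from 316 ± 5.39 to 492 ± 7.40 CPM (0.64), NFKBIZ, a nuclear IkB protein, from 37.1 ± 2.04 to 68.9 ± 6.34 CPM (0.89), and ZC3H12A, an RNase that degrades cytokine mRNA, from 30.03 ± 1.93 to 100 ± 8.89 CPM (1.74). Among the subunits, RELB and NFKB2, of the non-canonical arm, rose by 0.50 and 0.42 and RELA by 0.22, whereas NFKB1 was not called (-0.03). Upstream, TRAF1, MAP3K8, IRAK2 and IKBKE, which relay receptor signals, rose by 0.87, 0.87, 0.58 and 0.54, and IRAK1, a kinase of the interleukin-1 receptor, fell from 694 ± 10.8 to 538 ± 11.7 CPM (-0.37).

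Among the targets, LCN2, the iron-scavenging lipocalin, had 0.707, 1.22, 0.459 and 0.471 CPM in the sgNTS libraries and 6.51, 7.62, 6.18 and 5.04 CPM in the sgYES1 libraries. All sgNTS values were low and the groups did not overlap (log2 fold change 3.14, SE 0.23, adjusted p = 1.49e-07). C3, the central complement component, rose from 23.5 ± 1.13 to 66.8 ± 5.55 CPM (1.51), SOD2, mitochondrial superoxide dismutase, from 106 ± 2.10 to 255 ± 6.14 CPM (1.26), and ICAM1, an adhesion molecule for leukocytes, from 142 ± 6.03 to 198 ± 12.04 CPM (0.48). The acute-phase genes SAA1 and SAA2, which are near-identical and can exchange reads, rose by 1.27 and 1.96. CD83 was the target that fell, from 31.0 to 20.5 CPM (-0.60), and CD40 was not called (0.01). Of 8 tested genes of prostaglandin synthesis 2 rose and 1 fell (median 0.05; the number that fell was 0 without sgNTS replicates 3 or 4 or sgYES1 replicates 1 or 4 and 2 without sgYES1 replicate 3). Over all genes 20.8% rose and 22.1% fell. PTGS2, which encodes cyclooxygenase-2, rose from 1.54 ± 0.340 to 4.42 ± 0.982 CPM (1.49), and PTGES, the synthase of prostaglandin E, from 44.9 ± 1.53 to 65.0 ± 6.82 CPM (0.54).

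**Figure D3:**
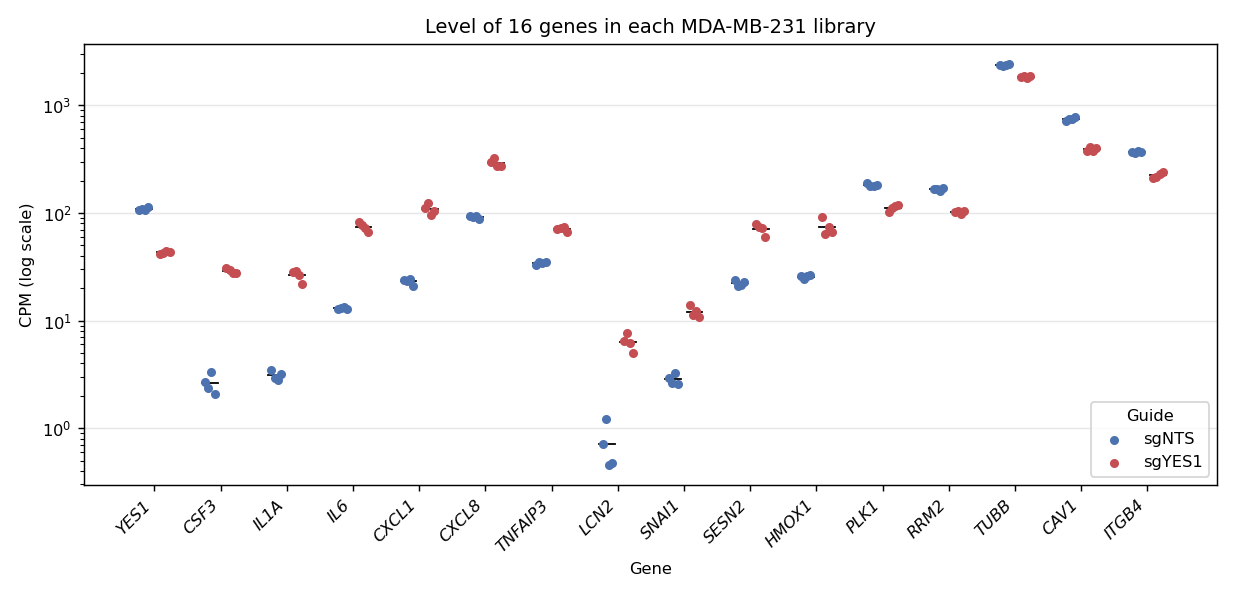
CPM (log axis) of 16 genes in each MDA-MB-231 library, 4 points per guide, with a bar at the mean of each group. YES1 lies between 41.6 and 44.3 CPM in the sgYES1 libraries, the cytokine and stress genes lie above all sgNTS libraries, and PLK1, RRM2, TUBB, CAV1 and ITGB4 lie below them.

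Immediate-early genes, which are switched on within minutes of a signal through ERK, p38 or calcium, were mostly higher. Of 19 tested, 12 rose and 1 fell (median 0.38). ARC, best known from synapses, had 2.66, 2.02, 2.07 and 2.01 CPM in the sgNTS libraries and 24.7, 19.9, 20.8 and 16.3 CPM in the sgYES1 libraries, with no overlap of the groups. Its log2 fold change was 3.20 (SE 0.14, adjusted p = 1.18e-09). EGR1 and IER3, a zinc finger factor and a survival gene, rose from 23.2 ± 2.64 to 35.7 ± 2.20 CPM (0.62) and from 394 ± 8.31 to 649 ± 15.4 CPM (0.72), and MYC rose from 197 ± 5.55 to 233 ± 10.5 CPM (0.24). Of 10 tested AP-1 subunits 7 rose and 2 fell (median 0.37). FOSB, FOS, ATF3 and JUNB rose by 2.38, 0.72, 1.54 and 0.56, JUN was not called (-0.02), and FOSL1, the Fos-related subunit that marks mesenchymal-like breast lines, fell.

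FOSL1 had 761, 727, 736 and 732 CPM in the sgNTS libraries and 498, 513, 510.2 and 475 CPM in the sgYES1 libraries, with no overlap and a log2 fold change of -0.57 (SE 0.03, adjusted p = 2.19e-08). Feedback inhibitors of ERK signaling were divided. Among them, 6 of 16 fell and 6 rose (median -0.09). SPRY4 and SPRY1, Sprouty inhibitors of receptor signaling, fell from 135 ± 2.32 to 111 ± 4.28 CPM (-0.28) and from 16.4 ± 1.07 to 10.8 ± 0.998 CPM (-0.59), and DUSP6, the phosphatase of ERK, had -0.16, while DUSP5 had 0.21. The ETS factors ETV5, ETV1 and ETV4 fell by 0.26, 0.23 and 0.12 on the log2 scale. Of the ligands of EGFR, TGFA and AREG fell (-0.40 and -0.26) and EREG rose (0.54), and neither EGFR itself (0.04) nor MET, the receptor of hepatocyte growth factor (0.03), was called. AXL, a receptor kinase abundant in this line, fell from 1759.8 ± 65.0 to 1332 ± 20.8 CPM (-0.40).

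Most stress targets of the integrated stress response rose, while more of the biosynthetic genes that share the regulator ATF4 fell than rose. In this response a kinase phosphorylates eIF2-alpha, general translation slows, and ATF4 is made. Of 8 tested stress targets 7 rose and 0 fell (median 0.64), against 2 rises and 7 falls among 15 enzymes of serine, one-carbon, proline and asparagine synthesis (median -0.13). SESN2, which restrains mTORC1 under stress, had 23.6, 20.8, 21.6 and 22.6 CPM in the sgNTS libraries and 79.4, 74.8, 73.1 and 59.4 CPM in the sgYES1 libraries. CHAC1, an enzyme that degrades glutathione, had 6.53, 5.46, 5.97 and 5.05 CPM in the sgNTS libraries and 11.7, 13.4, 11.9 and 11.6 CPM in the sgYES1 libraries. Neither gene's groups overlapped (log2 fold changes 1.69 and 1.08, SE 0.08 and 0.10, adjusted p = 2.13e-09 and 9.78e-07). GDF15, a stress cytokine, rose from 14.9 ± 1.24 to 34.9 ± 1.46 CPM (1.23), DDIT3, which encodes CHOP, from 12.8 ± 0.402 to 24.1 ± 1.73 CPM (0.91), and PPP1R15A, which reverses the phosphorylation of eIF2-alpha, from 227 ± 7.47 to 475 ± 23.4 CPM (1.07). ATF4 mRNA itself rose by 0.24. The enzymes that rose were CTH, of cysteine synthesis (0.98), and ASNS, asparagine synthetase (1.8 to 2.84 CPM, 0.65), while PSAT1, MTHFD1 and SHMT1 fell (-0.36, -0.35 and -0.41). SLC7A11 and SLC3A2, the pair that forms the cystine importer, rose from 136 ± 23.03 to 204 ± 17.8 CPM (0.58) and from 420.1 ± 14.4 to 643 ± 29.3 CPM (0.61), whereas SLC7A5, which pairs with SLC3A2 to import leucine, had -0.16. Of 20 aminoacyl-tRNA synthetases 4 rose and 6 fell (median 0.03), near the 20.8% and 22.1% of all genes.

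The promoters of CHAC1 and ASNS are shown because each holds a match to the composite element that ATF4 binds, searched as TGATG and AA with any base between them, or the reverse complement, and given in capitals. They lie at chr15:40953232-40953299 (plus strand) and chr7:97872439-97872506 (minus strand) in GRCh38.p14 and are printed 5′ to 3′ on the strand of the gene.
CHAC1: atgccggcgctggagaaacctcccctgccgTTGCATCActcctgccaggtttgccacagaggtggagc
ASNS: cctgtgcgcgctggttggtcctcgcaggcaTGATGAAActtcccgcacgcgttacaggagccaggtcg
The match starts at -209 in CHAC1 and -68 in ASNS. It was found in 3.62% of all windows, in 1.69% of those of tested protein-coding genes and in 8 of 37 windows of the stress list. Over all tested protein-coding genes with a window, 39 of the 172 with the element rose and 39 fell (22.7% each). Of the 10176 in all, 20.04% rose and 25.7% fell. A match of letters shows no binding.

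Antioxidant genes under NRF2, the factor released when its partner KEAP1 is oxidized, were higher by mostly small amounts. Of 17 tested, 12 rose and 2 fell (median 0.18; the number that fell was 1 without sgNTS replicates 2, 3 or 4 or sgYES1 replicates 2 or 3), and of 11 genes of NADPH supply and aldo-keto reductases 7 rose and 0 fell. HMOX1, heme oxygenase, had 25.8, 24.2, 25.9 and 26.3 CPM in the sgNTS libraries and 91.4, 64.2, 74.9 and 66.4 CPM in the sgYES1 libraries. FTL, the light chain of ferritin, had 2106, 2006, 2135 and 2191 CPM in the sgNTS libraries and 4174, 3986, 4283 and 4229 CPM in the sgYES1 libraries. FTL gained more counts than any other protein-coding gene whose groups did not overlap, although its pseudogenes can share its reads, and its log2 fold change was 0.98 (SE 0.04, adjusted p = 1.46e-10). The heavy chain FTH1 rose from 792 ± 28.5 to 1336 ± 52.6 CPM (0.75), a value that is uncertain because exons of BEST1 on the other strand cover 62.4% of its exon bases. TXNRD1, thioredoxin reductase, rose from 1044 ± 47.9 to 1327 ± 61.5 CPM (0.35), AKR1C1 from 8.48 ± 0.736 to 24.1 ± 1.29 CPM (1.51), and SQSTM1, the autophagy receptor p62 that binds KEAP1, from 555 ± 22.1 to 1063 ± 38.8 CPM (0.94). NQO1, a textbook NRF2 target, had 0.12, a call that was lost without any 1 of sgNTS replicates 1 or 2 or sgYES1 replicate 3, and SLC40A1, the iron exporter ferroportin, fell from 7.50 ± 0.797 to 5.02 ± 0.861 CPM (-0.57).

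Several stress and growth arrest genes rose. Of 20 tested, 9 rose and 4 fell (median 0.22), where 20.8% of all genes rose and 22.1% fell. The highest fold changes belonged to the GADD45 stress sensors. GADD45G had 1.08, 0.849, 0.804 and 0.899 CPM in the sgNTS libraries and 9.67, 6.93, 9.87 and 8.42 CPM in the sgYES1 libraries, with a log2 fold change of 3.24 (SE 0.16, adjusted p = 3.83e-09). GADD45A and GADD45B rose from 100.4 ± 1.17 to 198 ± 6.48 CPM (0.98) and from 42.7 ± 2.20 to 78.7 ± 4.21 CPM (0.88). CDKN1A, the kinase inhibitor p21, rose from 154 ± 3.56 to 235 ± 9.79 CPM (0.61). Of 4 other tested CDK inhibitors, CDKN1C (p57) rose from 8.51 ± 0.634 to 18.5 ± 0.362 CPM (1.12), CDKN2D and CDKN2C fell (-0.61 and -0.46) and CDKN1B was not called (0.04), and MDM2, a ubiquitin ligase, fell from 50.4 ± 3.28 to 40.6 ± 1.17 CPM (-0.31). Of 12 effector and BH3-only death genes of the BCL2 family 4 rose and 3 fell (the number that fell was 1 without sgNTS replicate 1 or sgYES1 replicate 1). Over all genes the shares were 20.8% and 22.1%. BBC3 and BIK, both BH3-only, rose (0.87 and 1.24), the survival gene BCL2 fell from 16.7 ± 2.19 to 11.7 ± 0.638 CPM (-0.52), and MCL1 was not called (0.04).

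Genes of mitosis were lower nearly throughout. Of 140 tested members 116 fell and 3 rose, where 22.1% of all genes fell, and the median log2 fold change was -0.39. Together they took 16988 ± 128 CPM in sgNTS and 13225 ± 351 CPM in sgYES1 (SD, n = 4). The 3 that rose were MAD1L1, a checkpoint scaffold, and ANAPC2 and CDC26, subunits of the anaphase-promoting complex (0.39, 0.30 and 0.27). By role, 19 of 21 entry kinases, cyclins and their factors fell, 36 of 41 kinetochore and passenger genes, 13 of 13 kinesins, 18 of 20 spindle and cytokinesis genes and 15 of 18 condensin and cohesin genes. Among checkpoint and anaphase-promoting complex genes 15 of 27 fell.

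The falls were mostly under 1.5-fold. PLK1, a polo-like kinase needed for bipolar spindles, had 189.9, 177, 179.9 and 182 CPM in the sgNTS libraries and 101.3, 110.1, 115 and 119 CPM in the sgYES1 libraries. CCNB2, a mitotic cyclin, had 82.3, 79.9, 83.5 and 81.2 CPM in the sgNTS libraries and 56.7, 58.2, 57.7 and 61.6 CPM in the sgYES1 libraries. BUB1B, the checkpoint protein BubR1, had 77.7, 81.6, 82.6 and 81.0 CPM in the sgNTS libraries and 54.1, 58.9, 54.0 and 59.3 CPM in the sgYES1 libraries. In all 3 genes the highest sgYES1 library lay below the lowest sgNTS library, and the log2 fold changes were -0.71 (SE 0.05, adjusted p = 5.82e-08), -0.48 (SE 0.04, adjusted p = 5.13e-07) and -0.51 (SE 0.04, adjusted p = 7.29e-07). MYBL2, the factor that joins MuvB to switch on this program, fell from 167 ± 3.65 to 105 ± 3.08 CPM (-0.67), and SPDL1 and SGO2, which bring dynein and phosphatase to the kinetochore, fell by 0.66 and 0.60 on the log2 scale. KIF20A, a kinesin of cytokinesis, had 171, 174, 171 and 174 CPM in the sgNTS libraries and 109, 122, 114 and 114 CPM in the sgYES1 libraries, with a log2 fold change of -0.58 (SE 0.04, adjusted p = 5.34e-08). KIF11, the kinesin that separates spindle poles, fell from 182 ± 7.64 to 131 ± 5.53 CPM (-0.47), KIFC1, which clusters extra centrosomes, from 191 ± 7.07 to 130.1 ± 5.28 CPM (-0.55), and KIF2C, which corrects faulty attachments, from 182 ± 3.73 to 129 ± 6.42 CPM (-0.49).

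Promoters of mitotic genes are shown because many hold a CHR, the element TTTGAA or its reverse complement TTCAAA, near the gene start. The stretches are chr16:23678830-23678888 (plus strand) for PLK1, chr15:59105087-59105145 (plus strand) for CCNB2 and chr15:40161016-40161068 (plus strand) for BUB1B, in GRCh38.p14, printed 5′ to 3′ on the strand of the gene with the CHR in capitals.
PLK1: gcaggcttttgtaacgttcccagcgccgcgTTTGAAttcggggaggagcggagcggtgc
CCNB2: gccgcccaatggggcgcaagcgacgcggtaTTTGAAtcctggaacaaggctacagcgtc
BUB1B: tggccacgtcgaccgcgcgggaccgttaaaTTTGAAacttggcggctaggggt
The CHR starts at -29 in PLK1 and CCNB2 and at -23 in BUB1B, and the CCNB2 stretch also holds the letters of a CCAAT box upstream of it. In CDK1, which is not printed, it starts farther off, at -161. KIF20A, CCNB1, CDC25C and AURKB were looked at as well and had no match or no window. A CHR was found in 60 of 121 windows of mitotic genes, against 15.2% of all windows and 9.53% of those of tested protein-coding genes. A CCAAT box was found in 72 of the 121, against 34.6% of all windows. Over every tested protein-coding gene with a window, 295 of the 970 with a CHR fell and 170 rose (30.4% and 17.5%). Of the 3687 with a CCAAT box, 955 fell and 731 rose (25.9% and 19.8%). Of the 404 with both elements, 153 fell and 67 rose (37.9% and 16.6%). The shares over the 10176 in all were 25.7% and 20.04%. Some mitotic genes are among those 404, so the counts overlap.

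Centriole and spindle genes fell beside the mitotic list. Of 13 centriole assembly genes 9 fell and 0 rose (median -0.36). CCP110, which caps centrioles, had 34.3, 38.8, 38.7 and 38.3 CPM in the sgNTS libraries and 22.4, 25.7, 22.8 and 21.9 CPM in the sgYES1 libraries, with a log2 fold change of -0.70 (SE 0.06, adjusted p = 9.53e-07). PLK4, the kinase that starts centriole duplication, fell from 65.4 ± 3.12 to 45.4 ± 1.15 CPM (-0.53), and STIL, its partner, from 82.1 ± 4.30 to 58.6 ± 1.68 CPM (-0.49). Tubulins, the targets of taxanes, were split by isotype. TUBB, the main beta tubulin, had 2389, 2339, 2366 and 2421 CPM in the sgNTS libraries and 1815, 1854, 1809.6 and 1861 CPM in the sgYES1 libraries, with a log2 fold change of -0.37 (SE 0.03, adjusted p = 3.13e-07). TUBA1B, TUBA1C, TUBB6 and TUBB4B also fell (-0.53, -0.41, -0.39 and -0.33), while TUBB3, the isotype of neurons, rose from 1.16 to 2.02 CPM (0.80). TUBB2A had 0.19, a call that was lost without sgNTS replicate 2 or sgYES1 replicates 1 or 4. Tubulin genes have close paralogs and pseudogenes, so the split between them is uncertain. Among 8 drug exporters of the ABC family 3 rose and 0 fell (the number that fell was 1 without sgNTS replicate 1 or sgYES1 replicates 2 or 3). ABCC2 had 2.66, 2.07, 1.72 and 1.71 CPM in the sgNTS libraries and 6.90, 6.52, 6.08 and 4.13 CPM in the sgYES1 libraries, with no overlap (a 2.83-fold rise, with an SE of 0.19 on the log2 scale, adjusted p = 1.96e-05). ABCC3 rose from 86.6 ± 6.51 to 128 ± 5.28 CPM (0.57), and neither ABCC1 (0.04) nor ABCG2 (-0.20) was called.

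Genes of G1, replication and nucleotide supply fell as the mitotic genes did. Of 84 tested 70 fell and 1 rose (median -0.29), the exception being E2F7, an E2F of the repressive kind (0.25). RRM2, the small subunit of ribonucleotide reductase, had 167, 166, 162 and 170.5 CPM in the sgNTS libraries and 103, 105, 97.5 and 105 CPM in the sgYES1 libraries. E2F8, the other repressive E2F, had 41.6, 40.5, 37.7 and 40.0 CPM in the sgNTS libraries and 21.5, 22.4, 22.5 and 21.0 CPM in the sgYES1 libraries. In both genes the groups did not overlap, with log2 fold changes of -0.70 (SE 0.04, adjusted p = 6.09e-09) and -0.87 (SE 0.05, adjusted p = 2e-08). CCNE2, a cyclin of S-phase entry, fell from 19.1 ± 1.72 to 11.7 ± 0.329 CPM (-0.70), whereas CCNE1 and E2F3 were not called (-0.16 and -0.09). 17 of 21 origin and helicase genes fell, led by MCM6 (-0.61), and 28 of 29 fork genes, led by POLE2 (-0.62). Of 13 Fanconi genes, which repair crosslinks, 10 fell and 0 rose, BRIP1 among them (-0.52). Of 22 recombination genes 10 fell and 0 rose (the number that rose was 1 without sgNTS replicate 4), while XRCC3, RAD51C and ATM were not called (0.02, -0.02 and 0.10).

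**Figure D4:**
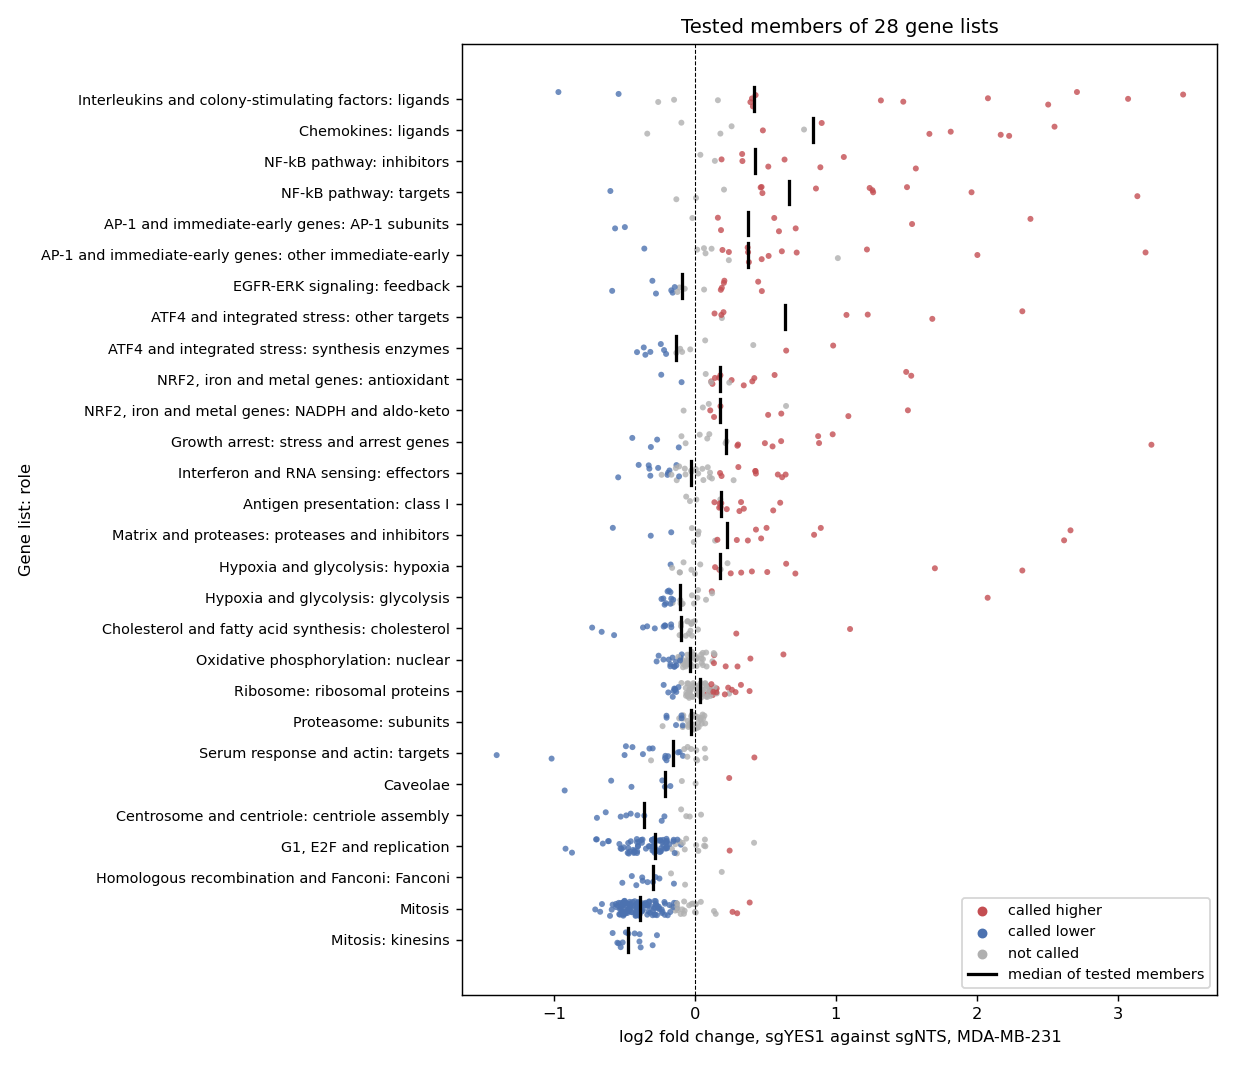
Log2 fold change of each tested member of 28 gene lists in MDA-MB-231, coloured by call, with a bar at the median of the tested members. Cytokine, NF-kB and immediate-early members reach far to the right, and members of mitosis and replication gather to the left of 0.

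Genes of caveolae, hemidesmosomes and the actin cytoskeleton, where Src kinases act, changed in part. Of 9 caveola genes 6 fell and 1 rose, where 22.1% of all genes fell and 20.8% rose. CAV1, the main caveolin and a known substrate of Src, had 722, 742, 742 and 779.8 CPM in the sgNTS libraries and 380.4, 413, 377 and 403 CPM in the sgYES1 libraries. It was lower in all 4 sgYES1 libraries than in any sgNTS library (log2 fold change -0.92, SE 0.04, adjusted p = 5.04e-10), and CAVIN2 and CAVIN3, coat proteins of the caveola, fell from 49.6 ± 3.72 to 32.9 ± 2.90 CPM (-0.59) and from 86.4 ± 5.78 to 63.0 ± 7.65 CPM (-0.45). ITGB4, the integrin of hemidesmosomes, had 367, 364, 375 and 366 CPM in the sgNTS libraries and 211, 218, 229 and 242 CPM in the sgYES1 libraries, with a log2 fold change of -0.71 (SE 0.04, adjusted p = 1.48e-08), and its partner ITGA6 fell from 559 ± 27.5 to 417 ± 20.3 CPM (-0.42). Their ligand laminin-332 was split, with LAMB3 higher (0.32) and LAMA3 lower (-0.27). Of 13 other integrins 7 rose and 3 fell. Of the rises 3 were by at least 1.5-fold, and the log2 fold changes of the 13 ran from -0.43 to 2.53. The number that rose was 3 without sgNTS replicate 2 or sgYES1 replicate 2 and 4 without sgNTS replicate 1 or sgYES1 replicate 1. ITGB5, ITGA3 and ITGB1 fell (-0.38, -0.23 and -0.21), ITGAV rose (0.21), and ITGA5 was not called (0.03). ITGA2, of the collagen receptor, had 0.24, a call that was lost without sgNTS replicates 1, 2 or 3 or sgYES1 replicates 1 or 2, with DESeq2 and with the replicate block.

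Of 18 adhesion kinases and adaptors 9 fell and 3 rose. PTK2, which encodes FAK, fell from 169.6 ± 7.28 to 144 ± 3.21 CPM (-0.23), NEDD9, a docking protein of FAK and Src, rose from 11.5 ± 1.67 to 17.6 ± 0.618 CPM (0.62), and BCAR1, its relative p130Cas, was not called (-0.05). VCL, vinculin, and ACTN4, an actin crosslinker, fell from 442 ± 19.5 to 342 ± 11.5 CPM (-0.37) and from 1748 ± 51.3 to 1373 ± 54.5 CPM (-0.35). ACTB had 6943, 6612, 6693 and 6746 CPM in the sgNTS libraries and 5588, 5720.3, 5943 and 6057 CPM in the sgYES1 libraries, the largest loss of counts of any protein-coding gene without overlap, and its log2 fold change was -0.21 (SE 0.03, adjusted p = 0.000169). CORO2B, a coronin that binds actin, had 22.1, 19.6, 20.5 and 21.4 CPM in the sgNTS libraries and 8.26, 8.02, 6.66 and 8.58 CPM in the sgYES1 libraries, with a log2 fold change of -1.41 (SE 0.08, adjusted p = 2.05e-08). Of 26 genes of the actin cytoskeleton and serum response 15 fell and 1 rose, the exception being TPM2, a tropomyosin (0.42; the number that rose was 2 without sgNTS replicate 4). SRF, the serum response factor, was not called (0.02). Of 22 tested YAP and TAZ targets 9 fell and 3 rose (median -0.08). CTGF and AXL fell (-0.47 and -0.40), and CYR61 and ANKRD1 were not called (0.06 and -0.08).

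Among matrix proteases and their inhibitors rises outnumbered falls. Of 18 tested 10 rose and 3 fell (median 0.23). MMP1, interstitial collagenase, rose from 19.9 ± 1.53 to 37.2 ± 1.58 CPM (0.89), MMP14, a membrane-bound protease, from 843 ± 19.8 to 1093 ± 23.2 CPM (0.38), and TIMP3, an inhibitor of such proteases, fell from 489.6 ± 18.3 to 327 ± 11.4 CPM (-0.58). In the TGF-beta family, INHBB, an activin subunit, had 3.79, 4.40, 5.57 and 5.01 CPM in the sgNTS libraries and 2.26, 1.79, 1.61 and 1.73 CPM in the sgYES1 libraries (log2 fold change -1.34, SE 0.16, adjusted p = 1.38e-05), and INHBA, the other activin subunit, rose from 6.93 ± 0.802 to 14.1 ± 1.21 CPM (1.01). PLAU, the urokinase-type activator, was not called (-0.01). ID1 and ID3, targets of BMP signaling, fell (-0.52 and -0.32).

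Of the factors that govern the mesenchymal state, SNAI1 rose. It had 2.91, 2.65, 3.27 and 2.57 CPM in the sgNTS libraries and 13.9, 11.3, 12.2 and 10.7 CPM in the sgYES1 libraries, with no overlap and a log2 fold change of 2.08 (SE 0.12, adjusted p = 1.05e-08). ZEB1 fell and ZEB2 rose (-0.21 and 0.29). SNAI2 had 0.18, a call that was lost without sgNTS replicate 3 or sgYES1 replicate 1. VIM, vimentin, fell from 1153 ± 21.4 to 922 ± 21.5 CPM (-0.32), and so did the epithelial keratins KRT18, KRT8 and KRT19 (-0.36, -0.30 and -0.29). The epithelial list had 7 falls and 2 rises among 12 tested genes, both rises by at least 1.5-fold. Its mesenchymal counterpart had 3 falls and 3 rises among 8, where 22.1% of all genes fell and 20.8% rose. CD44, a surface receptor of hyaluronan, was not called (0.03).

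Among metabolic lists, most called genes of cholesterol synthesis fell and most called hypoxia-inducible genes rose. Of 27 genes of cholesterol synthesis and transport 11 fell and 2 rose (median -0.10). ABCA1, which exports cholesterol, had 23.7, 30.2, 29.5 and 39.3 CPM in the sgNTS libraries and 72.7, 64.6, 64.6 and 61.9 CPM in the sgYES1 libraries, with a log2 fold change of 1.10 (SE 0.11, adjusted p = 2.13e-06). STARD4, a carrier of cholesterol, fell from 20.4 ± 1.04 to 12.9 ± 0.5998 CPM (-0.66), while HMGCS1, an enzyme of its synthesis, was not called (-0.02). Hypoxia-inducible genes were counted apart from glycolysis. Of 20 of the former 10 rose and 1 fell (median 0.18; the number that fell was 2 without sgNTS replicate 4 or sgYES1 replicate 2), and of 23 of the latter 2 rose and 10 fell (median -0.10). Among all tested genes over 100 CPM, 1033 of 2414 fell and 344 rose. Whether the falls in glycolysis exceed those of other genes at their level was not tested.

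ANGPTL4, a secreted inhibitor of lipoprotein lipase, had 13.5, 14.1, 17.0 and 14.05 CPM in the sgNTS libraries and 51.1, 45.3, 47.8 and 46.1 CPM in the sgYES1 libraries (log2 fold change 1.70, SE 0.07, adjusted p = 5.04e-10). VEGFA, the vascular growth factor, rose from 185 ± 17.3 to 303 ± 12.5 CPM (0.71), and CA9, a marker of HIF activity, was not called (2.44 to 2.23 CPM). SLC16A1, the lactate transporter MCT1, had 0.583, 0.265, 0.517 and 0.428 CPM in the sgNTS libraries and 2.38, 2.48, 2.09 and 0.984 CPM in the sgYES1 libraries, and its replicate 4 of sgYES1 lay well below the other sgYES1 libraries (log2 fold change 2.08, SE 0.33, adjusted p = 0.000186). LDHA and PGK1 fell by 0.21 and 0.19 on the log2 scale. None of the 13 tested protein-coding genes of the mitochondrial genome was called by edgeR (0 had an unadjusted p under 0.05) or by DESeq2. The mitochondrial share differed between sgNTS libraries as given above. Over all 34 tested genes of that genome, protein-coding or not, 5 rose and 0 fell, where 20.8% of all genes rose and 22.1% fell. Of 60 nuclear genes of oxidative phosphorylation 14 fell and 6 rose (median -0.04); the number that fell was 8 without sgYES1 replicate 1, and the number that rose 3 without sgYES1 replicate 4. Of 79 ribosomal protein genes 9 fell and 14 rose (median 0.04; the number that rose was 8 without sgNTS replicate 3 and 9 without sgNTS replicate 4 or sgYES1 replicates 3 or 4), and of 35 proteasome subunits 6 fell and 0 rose. These shares are below the 42.8% of all genes that were called.

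Of 38 tested interferon effectors 9 rose and 11 fell (median -0.03), which is near the shares over all genes (20.8% higher and 22.1% lower). IFIT1, which binds foreign RNA, had 67.7, 70.3, 70.5 and 66.3 CPM in the sgNTS libraries and 42.5, 46.3, 47.3 and 51.6 CPM in the sgYES1 libraries, with no overlap and a log2 fold change of -0.54 (SE 0.05, adjusted p = 2.43e-06). OAS3 and IFIT3 fell as well (-0.33 and -0.32), and MX1, IFI35 and GBP1 rose (0.59, 0.62 and 0.43). IRF1, the factor shared by interferon and NF-kB responses, rose from 53.4 ± 0.485 to 83.6 ± 2.42 CPM (0.65). ISG15, a ubiquitin-like effector, had -0.18, a call that was lost without sgNTS replicates 1 or 3 or sgYES1 replicates 1 or 2 and with library totals as the only scaling. Of 15 genes of class I antigen presentation 11 rose and 0 fell (median 0.18; the number that fell was 1 without sgYES1 replicate 4). ERAP2, a peptidase that trims antigens, had 13.3, 12.6, 12 and 13.1 CPM in the sgNTS libraries and 20.4, 19.0, 17.8 and 20.5 CPM in the sgYES1 libraries (log2 fold change 0.61, SE 0.07, adjusted p = 1.15e-05). HLA-B and TAP1 rose by 0.18 and 0.19, B2M was not called (-0.06), and HLA genes are uncertain because alleles and paralogs share reads.

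Outside the lists, the protein-coding genes with the highest fold changes at a mean of at least 10 CPM included SCG5, a chaperone of prohormone processing (8.38 to 37.9 CPM, 2.18), and RRAD, a Ras-related GTPase (12.4 to 49.7 CPM, 1.99). Those with the lowest included KISS1, which encodes the metastasis suppressor kisspeptin and had 39.3, 39.5, 40.9 and 42.0 CPM in the sgNTS libraries and 18.1, 16.3, 15.7 and 21.2 CPM in the sgYES1 libraries (log2 fold change -1.17, SE 0.08, adjusted p = 5.82e-08). ARHGDIB, a GDP-dissociation inhibitor of small GTPases, fell from 72.01 ± 2.65 to 39.6 ± 1.64 CPM (-0.86), ENPP1, which degrades extracellular nucleotides and cGAMP, from 144 ± 8.22 to 82.0 ± 3.81 CPM (-0.81), STMN3, a stathmin that destabilizes microtubules, from 156 ± 5.75 to 89.3 ± 6.00 CPM (-0.80), and SSX2IP, a centrosomal anchor protein, from 58.7 ± 1.34 to 34.2 ± 2.78 CPM (-0.78). Of long noncoding genes at 5 CPM or more, ATP2B1-AS1 and UCKL1-AS1 rose the most (1.42 and 1.42) and MIR137HG fell the most, from 16.5 ± 1.92 to 9.497 ± 0.997 CPM (-0.79). Without knowledge of the strand setting, reads of antisense genes cannot be told from those of their partners.

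**Figure D5:**
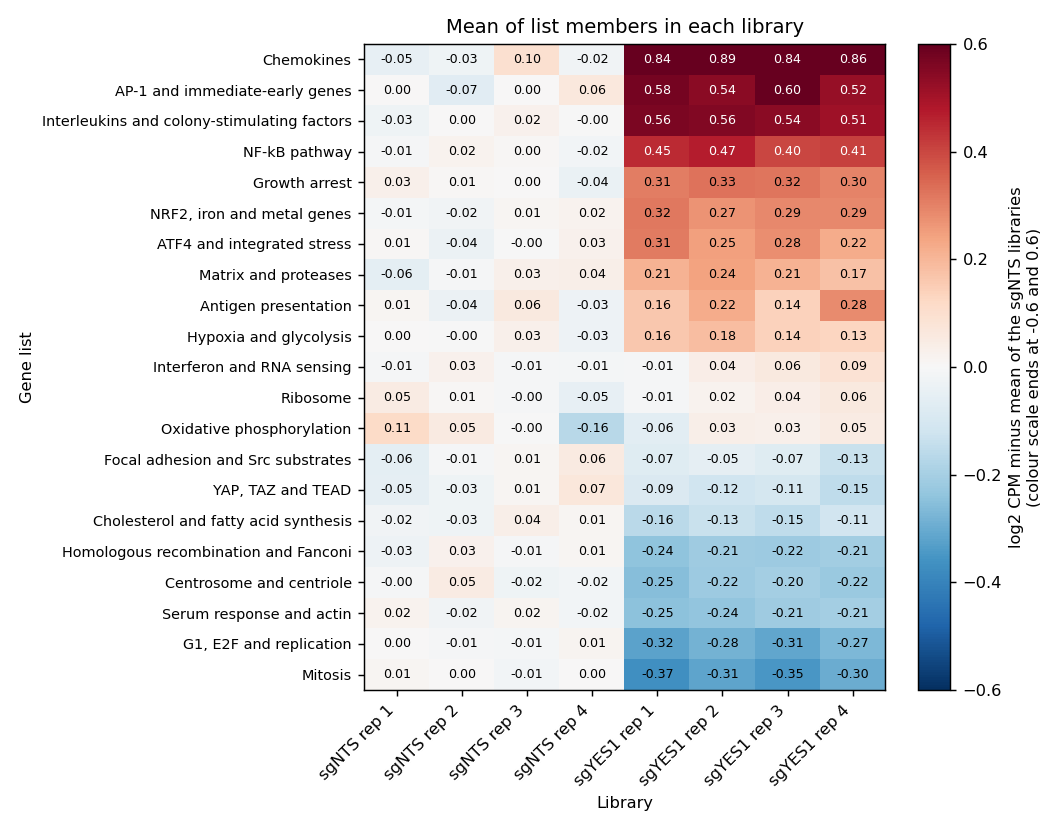
Mean over the tested members of 21 gene lists of log2 CPM minus the mean of the sgNTS libraries, for each of the 8 libraries. The sgNTS libraries stay near 0 except for oxidative phosphorylation, where replicates 1 and 4 are at 0.11 and -0.16, and the 4 sgYES1 libraries give like values within each of the lists at the top and bottom.

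The size of the guide's effect was set against SUM159PT by fitting all 16 libraries with a term for line by guide, in which 24.5% of 16640 genes differed (11.9% with the SUM159PT effect below that in MDA-MB-231 and 12.7% above). The loss of YES1 itself was not shown to differ (adjusted p = 0.308). Stress genes were among the 8 with the smallest p of the difference. SESN2 and GADD45A, which rose in MDA-MB-231 (1.69 and 0.98), had -1.11 and -0.92 in SUM159PT, and DDIT4, an inhibitor of mTORC1, had 0.14 in MDA-MB-231 and -1.99 in SUM159PT. FTL rose in MDA-MB-231 and had -0.0029 in SUM159PT, FBXO32, a ubiquitin ligase of muscle atrophy, had 1.18 and 0.13, and DNAJB1, a co-chaperone, -0.09 and 0.75. In MDA-MB-231 alone, the calls of DDIT4 and DNAJB1 were each lost without several single libraries (sgNTS replicates 2 or 4 or sgYES1 replicates 3 or 4 for DDIT4, and sgNTS replicates 3 or 4 or sgYES1 replicates 1 or 3 for DNAJB1). TGM2, transglutaminase, had -0.17 and 0.96, and STOM, stomatin, -0.32 and 1.74. Of the 140 mitotic genes 79 differed, 78 of them with the SUM159PT effect above that in MDA-MB-231, which is the smaller fall or a rise. Of the 16 interleukin and colony-stimulating factor ligands 12 differed, 9 of them with the SUM159PT effect below that in MDA-MB-231. For IL6 the log2 fold change of 2.51 in MDA-MB-231 stood against 0.51 in SUM159PT (adjusted p of the difference 5.4e-07).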

How the data were processed

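The values deposited by the authors are whole-number read counts per gene, made with HISAT2 2.0.5 and featureCounts 1.5.0-p3 per the submitters' processing notes, on hg38. Strand and multimapping settings are not given in the sources used here. Groups came from the labels, and no sample column was left unmapped. Genes were kept by filterByExpr (minimum count 10, minimum total 15) and tested with edgeR 4.0.16 (TMM, quasi-likelihood F-test, R 4.3.3), Benjamini-Hochberg adjusted over all tested genes. CPM values are TMM-scaled. The difference between lines was an interaction term over 16 libraries.

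The members and gene lists were chosen with earlier results of these data known. Named genes were YES1, marked list genes and up to 4 further called members per list and role, the 15 highest and 15 lowest fold changes of protein-coding genes at 10 CPM or more, the 8 largest CPM gains and losses, 4 long noncoding genes each way at 5 CPM or more, genes within 1 Mb of YES1 and the 8 with the smallest p of the line difference. Part of these are printed, and 23 further genes were picked after their values were seen, TPM2, CD83, E2F7 and TGIF1 among them. Some results are not reported here. In counts simulated for the MDA-MB-231 comparison, 73.5% of 98 genes changed by 1.5-fold and 86.5% of 96 changed by 2-fold were recovered, with 11 false calls among 15246 unchanged genes. No other tested genes were changed in the simulation, whereas 42.8% of genes were called in the data. The 11 false calls therefore do not give the number of false calls in the data. Alternatives were other scalings, DESeq2 1.42.0, other filters, a fold test, a replicate block, all 16 libraries in 1 fit and each library left out.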

Additional observations from a re-analysis of the deposited data

Results flagged for a closer look

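In 3 of the 88 groups of 4 libraries examined, 1 library lay apart from the other 3, where chance gives about 1 group in 20. Most groups were of the levels of a single gene, and the rest of properties of the libraries such as total counts and mitochondrial share. The gap to the nearest library is given as a share of the range of the group. ARC in sgNTS replicate 1 was at 2.66 CPM, against 2.01 to 2.07 CPM in the other sgNTS libraries (share 0.918). CHAC1 in sgYES1 replicate 2 was at 13.4 CPM, against 11.6 to 11.9 CPM (share 0.852). CCP110 in sgNTS replicate 1 was at 34.3 CPM, against 38.3 to 38.8 CPM (share 0.891). In each of these genes the sgNTS and sgYES1 libraries still did not overlap.

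The effect of the guide differed between the lines for 34 of the 46 genes compared, by the interaction of line and guide in edgeR's quasi-likelihood test with Benjamini-Hochberg adjustment over 16640 genes, of which 24.5% differed. Of the 46 genes, 8 were chosen for the smallest p of this difference, so that the choice fixed their calls, and the others were shown for MDA-MB-231, whose libraries enter the difference. Values are log2 differences, with MDA-MB-231 subtracted from SUM159PT. Lower effects in SUM159PT were found for the ligands IL6, IL1A, CSF3 and CXCL8 and for the inhibitor NFKBIA, with -2.01 for IL6, -2.08 for IL1A, -2.07 for CSF3, -1.44 for CXCL8 and -0.29 for NFKBIA. Over the NF-kB list 17 of 50 differed, 8 with the lower and 9 with the higher effect in SUM159PT. For IL11 and CXCR4, which fell in MDA-MB-231 (-0.97 and -0.75), the difference was 4.42 and 4.70. Both were at most 0.536 and 0.493 CPM in any SUM159PT library, too low for a fit in that line alone, so the size of these differences depends on very few reads. Of single stress, arrest and iron genes, the negative differences were -2.81 for SESN2, -3.35 for CHAC1, -3.29 for GADD45G, -1.91 for GADD45A, -2.14 for DDIT4, -0.997 for FTL and -0.36 for HMOX1. Over the iron genes 5 of 10 differed, 2 with the lower and 3 with the higher effect in SUM159PT. Genes of mitosis, replication and tubulin had higher effects there, with 0.67 for PLK1, 0.18 for CCNB2, 0.49 for BUB1B, 0.56 for KIF20A, 0.66 for RRM2, 1.12 for E2F8, 0.44 for TUBB and 0.70 for TYMS. For genes of adhesion and matrix the difference was 0.34 for CAV1, 0.32 for ACTB, 1.12 for TGM2 and -0.65 for SNAI1. For the remaining genes it was -1.07 for ABCA1, -2.02 for SLC16A1, -1.07 for ABCC2, 1.21 for IFIT1, -0.38 for ERAP2, -1.06 for FBXO32, 0.84 for DNAJB1 and 2.05 for STOM. The calls for NFKBIA, HMOX1 and CCNB2 were each lost without single libraries of either line. NFKBIA lost its call without MDA-MB-231 sgNTS replicates 2, 3 or 4, MDA-MB-231 sgYES1 replicates 2 or 4, SUM159PT sgNTS replicates 1, 3 or 4 or SUM159PT sgYES1 replicates 1, 2 or 4. HMOX1 lost it without MDA-MB-231 sgNTS replicates 2 or 3, MDA-MB-231 sgYES1 replicate 1, any SUM159PT sgNTS library or SUM159PT sgYES1 replicates 1, 2 or 4, and CCNB2 without MDA-MB-231 sgYES1 replicates 1 or 3 or SUM159PT sgYES1 replicate 4. Without SUM159PT sgNTS replicate 2 the other 33 differences kept their calls.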

How the results depend on the processing

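The loss of YES1 kept its direction and its call under every alternative run. Called genes numbered 2868 higher and 3033 lower with the replicate block, 2945 and 3178 with DESeq2, 3222 and 3376 with RLE scaling, 3956 and 2661 with library totals alone, and 5778 to 6582 in all when 1 library was left out. No gene called in the main analysis was called in the other direction under any of these. The replicate numbers did not pair the libraries (correlations of same-numbered libraries from -0.165 to 0.084), so the block was not used. Tested against a fold of 1.2, 1154 genes were higher and 765 lower, since that test asks for more than a difference. Changes of at least 2-fold numbered 500 higher and 36 lower, 286 and 18 with a stricter filter (mean of 1 CPM or more), and 1008 and 86 with no filter, since these filters add or remove genes of low level. With library totals alone the median of all genes was 0.054. The text prints 243 genes, 220 of the 522 that the naming rule gave and 23 chosen after their values were seen. Of the 476 called named genes other than YES1, 8 to 20 lost the call when 1 library was left out, 1 to 26 under the other scalings, filters and fits, and 206 against a fold of 1.2. Among the printed genes the call was lost with DESeq2 for ITGA2, LYN, CSF1R and TPM2, with the replicate block for DDIT4, DNAJB1, ITGA2, LYN and CSF1R, with library totals alone for DNAJB1, ISG15, LYN and ETV4, with all 16 libraries in 1 fit for SPRY4, DDIT4, DNAJB1, LYN, DUSP5 and CSF1R, with the stricter filter for ISG15 and LYN, and with no filter for DDIT4, NQO1 and CSF1R. The line difference lost its call for HMOX1 with DESeq2, and for CCNB2 with the replicate block and with no filter. Genes that were not called and lay near 0 changed sign. With library totals alone the log2 fold change was HMGCS1 0.0241, JUN 0.0273, NFKB1 0.0158, PLAU 0.0377, RAD51C 0.0208 and STAT3 0.0301. With no filter it was CD40 -0.0196, CD44 -0.0009, FYN -0.0118, SRF -0.0121 and XRCC3 -0.0053, and with the stricter filter PLAU 0.0024. With 1 library left out it ran from -0.0164 to 0.2121 for ATM, from -0.2423 to 0.0296 for CA9, from -0.0269 to 0.0241 for CD40, from -0.0499 to 0.1426 for EGFR, from -0.0350 to 0.0551 for FYN, from -0.0734 to 0.0149 for HMGCS1, from -0.0383 to 0.0005 for JUN, from -0.0145 to 0.0798 for MET, from -0.0813 to 0.0075 for NFKB1, from -0.0325 to 0.0145 for PLAU, from -0.0834 to 0.0132 for RAD51C, from -0.0014 to 0.0341 for SRF, from -0.0345 to 0.0091 for STAT3 and from -0.0094 to 0.0614 for XRCC3. The CArG motif search planned for serum response genes was not run. Depth limits genes of low level most.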

Other observations

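The summed levels of small nuclear and small nucleolar RNAs were higher in the sgYES1 libraries, as were the nuclear RNAs NEAT1, MALAT1 and KCNQ1OT1. The classes and genes were picked after their values were seen. Summed over the small nuclear RNA class, which holds the RNAs of the spliceosome, the level was 9.17 to 12.2 CPM in the sgNTS libraries and 22.5 to 25.2 CPM in the sgYES1 libraries. For small nucleolar RNAs it was 21.0 to 27.1 CPM and 35.6 to 39.7 CPM. RNU5A-1, a U5 spliceosomal RNA, ranged over 0 to 0.172 CPM in sgNTS and 3.27 to 3.62 CPM in sgYES1, and SNORD3B-2, a U3 nucleolar RNA with near-identical copies, over 0.159 to 0.300 CPM and 3.11 to 3.52 CPM. Of 4 tested small nuclear genes 3 rose, and of 12 tested small nucleolar genes 3 rose (median log2 fold change 0.08), near the 20.8% of all genes. Among those that rose were RF00003, a small nuclear RNA gene (mean 0.0251 to 4.99 CPM), and SNORA71C, a small nucleolar one (5.01 to 11.2 CPM). The summed level of small Cajal body RNAs overlapped between the groups (0.291 to 0.860 and 0.589 to 0.904 CPM). NEAT1, the scaffold of paraspeckles, rose from a mean of 342 to 546 CPM (log2 fold change 0.68, adjusted p = 0.00143 in edgeR's quasi-likelihood test), and MALAT1, of nuclear speckles, from 75.1 to 97.5 CPM (0.37, adjusted p = 0.00864). KCNQ1OT1 rose from a mean of 2.80 to 4.81 CPM (0.76). In SUM159PT the log2 fold changes were -0.20 for NEAT1, -0.05 for MALAT1, 0.20 for KCNQ1OT1 and 0.43 for SNORA71C, which was not called there. RNU5A-1 had 7.64 in SUM159PT and 5.08 in MDA-MB-231. SNORD3B-2 was not tested in SUM159PT alone. Whether the make-up of the libraries takes part in these rises was not tested.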
